A study of Mus musculus with 4 samples.

Results

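Distal intergenic open chromatin was taken as those ATAC-seq peaks that the authors' peak annotation places between genes and at least 50 kb from the nearest transcription start site (TSS). The assay for transposase-accessible chromatin with sequencing (ATAC-seq) marks open DNA by where the Tn5 transposase can insert sequencing adapters. Of the 120839 peaks in 4 lists, 13507 met this rule: 3237 of 30136 in the extensor digitorum longus (EDL), 4996 of 40337 in the quadriceps (Quad), 3277 of 28784 in the soleus (Sol) and 1997 of 21582 in the diaphragm (Dia). All were from wild-type C57BL/6 mice (C57BL/6J in the study's methods), called sedentary in the series design, with no treatment named in the labels, which give neither age nor sex. EDL and Quad are mainly fast glycolytic muscles, while Sol and Dia hold more slow or oxidative fibers. Each muscle had 1 library made from frozen, powdered whole tissue, and the library names call it pooled without saying how many animals went in. Differences between muscles therefore have no replicate check, and every interval below is a 95% interval (Wilson for shares, Newcombe for differences of shares, exact Poisson for densities) that covers counting error only. In whole muscle, a region open in a few cell types and a region open weakly in many cells cannot be told apart.

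Enhancers are stretches of open DNA bound by transcription factors that raise the activity of a promoter, often over long distances through looping of the chromatin. Those far from any gene lie in gene deserts, which in vertebrates often flank genes for developmental regulators, and the gene nearest along the chromosome need not be the target. CTCF, an architectural protein, anchors many chromatin loops, whereas E-boxes are bound by myogenic basic helix-loop-helix factors such as MYOD1, and MEF2 factors act with them in muscle genes.

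The lists carried the marks of the labeled muscles in part. Peaks nearest Acta1 (skeletal alpha-actin) and Ckm (muscle creatine kinase) were present in all 4 lists. Actn3, a fast-fiber alpha-actinin, had a peak only in EDL and Quad, and Myh7, the slow myosin heavy chain, had 2 peaks in Sol and 0 in EDL, Quad and Dia. Other markers went against the labels: Tnnt1, a slow troponin, had its 1 peak in Quad, slow Tnni1 had a peak in EDL (percentile 43.2) as well as in Sol (77.0), and fast Myh4 had one in Sol (17.6) beside those in EDL (84.3) and Quad (76.4). Dia, the shortest list, had a peak at none of Myh7, Tnni1, Tnnt1, Myh4 and Actn3. Peak scores are tags in a peak scaled to a library of fixed size by HOMER, so each peak was ranked within its own list and is given by its score percentile (100 is the highest). The steps between low scores imply 78.1 M (megatags) in Quad and 99.3 to 105 M in the other libraries. The lowest-scored peak held about 25 tags in Quad and 32 to 36 tags in the other lists, and the Quad list, the longest, also reached furthest down in tags. Comparisons between muscles were therefore repeated at equal list length, on the top 20000 peaks by score from every list.

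The windows below, chosen after their values were seen, show the kinds of sequence behind the results that follow. Each is 200 bases centered on the highest-ranked peak of its region, read from the plus strand of GRCm38.p6 (mm10). Capitals mark matches to the 6 motifs searched on both strands: CTCF (CCANNAG followed directly by NNGGC), the E-box CAGCTG, MEF2, AP-1 TGANTCA, TEAD GGAATG and the nuclear factor I (NFI) site TTGGCA. The first is the highest-scored peak of every list. The next 3 are regions open in all muscles at high rank. The fifth is a high-ranked region open in all 4 muscles with a CTCF match and wholly unique sequence. The sixth lies in an element with enhancer activity in transgenic mouse embryos, and the last 2 are the highest-ranked isolated peaks of Quad and Sol.
Lrrc4c window, chr2:98667029-98667228: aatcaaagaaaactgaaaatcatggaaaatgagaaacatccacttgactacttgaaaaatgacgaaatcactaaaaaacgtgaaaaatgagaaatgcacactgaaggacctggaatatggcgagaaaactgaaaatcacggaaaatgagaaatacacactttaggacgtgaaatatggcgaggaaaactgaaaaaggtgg
Wnt7b window, chr15:85634657-85634856: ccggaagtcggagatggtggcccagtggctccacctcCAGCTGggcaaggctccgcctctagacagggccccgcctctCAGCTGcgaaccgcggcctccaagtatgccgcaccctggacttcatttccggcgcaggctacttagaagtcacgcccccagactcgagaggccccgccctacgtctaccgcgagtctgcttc
Akr1e1 window, chr13:4771498-4771697: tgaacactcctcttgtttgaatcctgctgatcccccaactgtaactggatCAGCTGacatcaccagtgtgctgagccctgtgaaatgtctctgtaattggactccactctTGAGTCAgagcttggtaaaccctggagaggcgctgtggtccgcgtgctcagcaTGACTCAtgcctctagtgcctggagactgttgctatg
Klf4 window, chr4:55651214-55651413: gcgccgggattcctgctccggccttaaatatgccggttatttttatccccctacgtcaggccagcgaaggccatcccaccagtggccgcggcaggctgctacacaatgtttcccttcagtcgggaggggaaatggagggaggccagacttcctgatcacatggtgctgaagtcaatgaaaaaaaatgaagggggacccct
Cd83 window, chr13:43864593-43864792: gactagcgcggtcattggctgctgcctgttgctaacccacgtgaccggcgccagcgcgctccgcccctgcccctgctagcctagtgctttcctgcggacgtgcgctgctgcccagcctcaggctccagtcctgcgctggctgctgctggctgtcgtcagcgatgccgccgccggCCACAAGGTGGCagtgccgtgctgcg
Bach2 window, chr4:32303760-32303959: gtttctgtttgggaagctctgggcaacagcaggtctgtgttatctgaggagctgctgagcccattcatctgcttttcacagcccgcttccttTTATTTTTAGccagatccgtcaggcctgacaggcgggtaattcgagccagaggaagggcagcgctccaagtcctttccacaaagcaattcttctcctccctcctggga
Spag17 window, chr3:99820303-99820502: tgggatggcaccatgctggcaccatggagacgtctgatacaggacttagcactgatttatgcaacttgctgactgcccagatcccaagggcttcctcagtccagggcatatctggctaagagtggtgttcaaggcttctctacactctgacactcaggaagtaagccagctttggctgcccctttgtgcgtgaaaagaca
Fat4 window, chr3:38820366-38820565: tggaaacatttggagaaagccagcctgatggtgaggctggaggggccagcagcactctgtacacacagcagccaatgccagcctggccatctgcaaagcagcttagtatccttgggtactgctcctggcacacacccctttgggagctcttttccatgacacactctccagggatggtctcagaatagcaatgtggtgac
The Wnt7b window holds 2 E-boxes, the Akr1e1 window holds 1 E-box and 2 AP-1 matches, the Cd83 window holds 1 CTCF match and the Bach2 window holds 1 MEF2 match on the minus strand. The Lrrc4c, Klf4, Spag17 and Fat4 windows hold none of the 6 motifs, which says only that these letters are not in these windows.

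Distal peaks were a minor part of each list. They made up 10.7% of EDL peaks (10.4 to 11.1) and 12.4% of Quad peaks (12.1 to 12.7), with 11.4% of Sol peaks (11.02 to 11.8) and 9.25% of Dia peaks (8.87 to 9.65). Among intergenic peaks alone they were 36.0% in EDL and 39.0% in Quad, with 37.8% in Sol and 34.5% in Dia. At equal list lengths the order changed: the share was 7.36% in EDL and 6.58% in Quad, then 7.81% in Sol and 8.21% in Dia, so Quad moved from the highest to the lowest place. The nearest gene was annotated as protein-coding for 73.3% to 74.1% of distal peaks, against 80.6% to 81.8% of intergenic peaks within 50 kb, and as non-coding RNA for 24.7% to 25.5%.

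The distances were much alike in the 4 muscles. The median distance to the TSS was 104 kb in EDL (quartiles 69.4 and 171) and 105 kb in Quad (70.7 and 181), with 104 kb in Sol (70.4 and 175) and 101 kb in Dia (69.0 and 163). Peaks at 50 to 100 kb were 46.9% to 49.4% of the distal peaks, those at 100 to 200 kb 31.5% to 32.8%, those at 200 to 500 kb 16.3% to 18.03% and those at 500 kb or more 2.50% to 3.56%. Distal peaks lay upstream of the nearest gene slightly more often than downstream, in 53.2% of EDL peaks (51.4 to 54.9) and 51.5% of Quad peaks (50.1 to 52.8), then 52.0% of Sol peaks (50.3 to 53.7) and 54.1% of Dia peaks (51.9 to 56.3). In the 50 to 100 kb bin 54.8% to 56.0% were upstream. The rule leaves out gene bodies, which lie downstream of the start, so less downstream sequence could hold a distal peak. The part of this in the upstream shares was not tested. At 200 to 500 kb the upstream share was 45.0% to 46.6% in the hindlimb muscles and 51.2% in Dia.

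Open chromatin thinned out with distance once the amount of intergenic sequence was counted, with distances taken anew from RefSeq transcript starts on the autosomes and X. Assembly gaps, where no peak can be called, were counted as intergenic sequence. Bins that hold gaps therefore have densities that are too low, and by how much was not tested. All sequence outside transcripts was counted too, although peaks close to a start or gene end can be annotated as promoter or gene-end and not intergenic. The density within 10 kb is therefore also too low. The part of this in the level run to 50 kb was not tested. EDL had 10.01 intergenic peaks per Mb of intergenic sequence within 10 kb of a TSS, 9.92 at 10 to 50 kb, 6.20 at 50 to 100 kb, 3.80 at 100 to 200 kb, 1.73 at 200 to 500 kb and 0.318 (0.248 to 0.401) at 500 kb or more. Quad fell from 13.2 peaks per Mb within 10 kb to 0.667 (0.565 to 0.784) in the farthest bin, Sol from 8.85 to 0.403 (0.324 to 0.496) and Dia from 6.62 to 0.220 (0.162 to 0.290). The density was level up to 50 kb and fell in each further bin in all 4 lists, with no overlap between the intervals of neighboring bins.

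**Figure D1:**
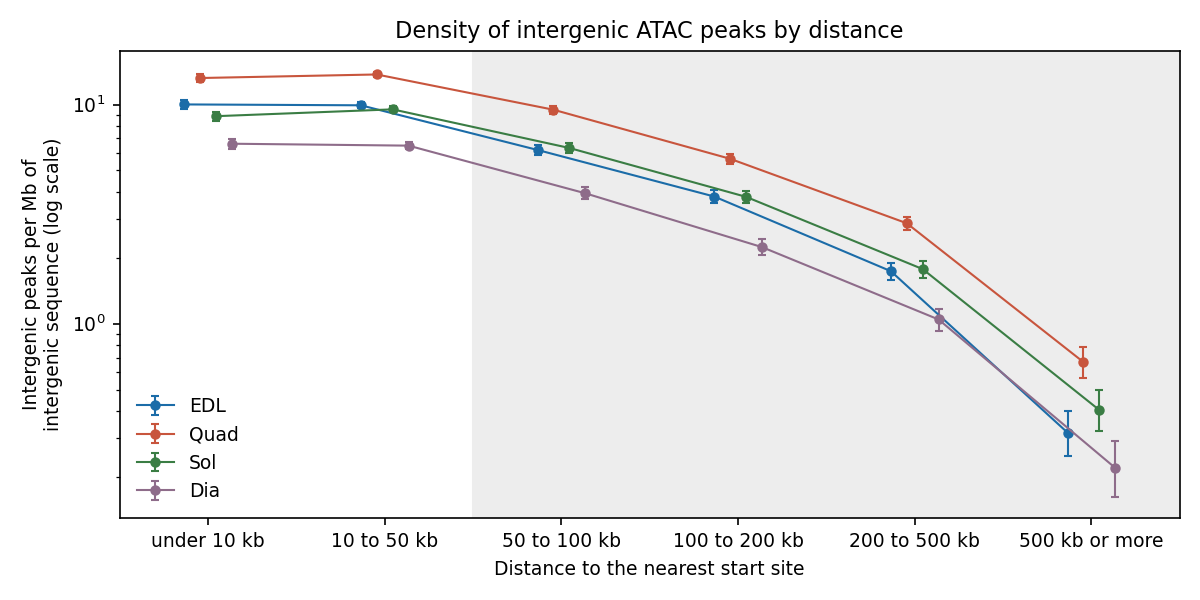
Intergenic ATAC-seq peaks per Mb of intergenic sequence, assembly gaps included (log scale), against distance to the nearest TSS in EDL, Quad, Sol and Dia. Points are 1 library each, bars are 95% Poisson intervals and the shaded bins are those at 50 kb or more. In every list the density stays level to 50 kb and then falls, in EDL from 6.20 to 0.318 peaks per Mb across the shaded bins. The first bin leaves out promoter peaks but counts promoter sequence outside transcripts, so its density is too low.

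The 50 kb limit cut through a continuous range of distances. In EDL the nearest peak inside it was 50044 bp from Podxl at percentile 52.5, and the farthest peak outside it was 49996 bp from Pole4 at percentile 18.8. In Quad these were 50007 bp from Ppp1cb at percentile 28.03 and 49974 bp from Mir6337 at percentile 7.89. In Sol they were 50041 bp from Podxl at percentile 55.3 and 49997 bp from Itga11 at percentile 73.7. In Dia they were 50039 bp from Itga11 at percentile 59.2 and 49971 bp from Podxl at percentile 35.4. The same regions near Podxl and Itga11 thus counted as distal in some lists and not in others, since the peak positions differed slightly between lists. Of 7305 merged regions with a distal peak, 6 also held a peak of another class.

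The annotation decided how remote a peak was. When every GENCODE transcript was counted, 71.7% of EDL and 71.2% of Quad peaks and 72.0% of Sol and 74.0% of Dia distal peaks had some transcript start within 50 kb. A protein-coding GENCODE start lay within 50 kb of 13.0%, 13.1%, 12.2% and 14.0% of them. Between 18.002% and 19.7% lay inside a GENCODE transcript, and 6.27% of EDL and 5.97% of Quad peaks and 6.44% of Sol and 8.46% of Dia distal peaks were within 1000 bp of a GENCODE start, against 9.09% to 11.9% of nearer intergenic peaks.

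Distal peaks were weaker than nearer intergenic peaks. Their median score percentile was 30.1 in EDL and 30.2 in Quad, then 29.3 in Sol and 24.96 in Dia, against 39.6, 41.8, 39.3 and 34.1 for intergenic peaks within 50 kb of the same lists. The lowest decile of each list by score held 18.6% of the EDL, 19.1% of the Quad, 22.4% of the Sol and 24.4% of the Dia distal peaks, and the highest decile held 2.16%, 1.54%, 1.74% and 1.55%. The share of distal peaks fell with rank in all lists, from 21.5% of the lowest EDL decile to 2.31% of the highest and from 24.0% to 1.90% in Quad. Within the distal class the median percentile fell again with distance, from 33.0 at 50 to 100 kb to 20.5 at 500 kb or more in EDL and from 32.4 to 18.02 in Quad, from 32.01 to 13.0 in Sol and from 26.5 to 14.1 in Dia.

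**Figure D2:**
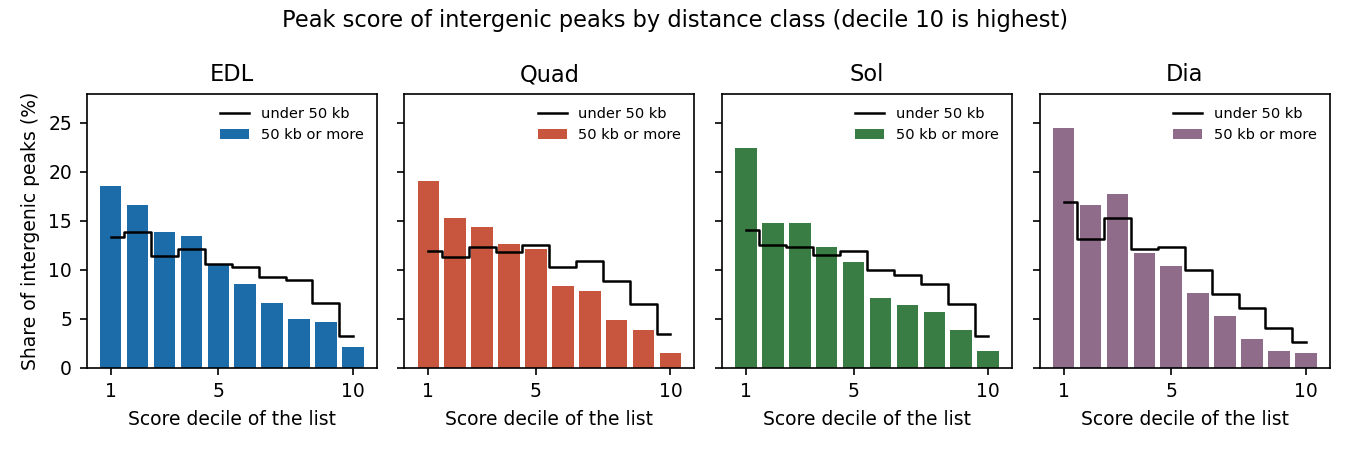
Share of intergenic peaks (%) in each decile of a peak list ranked by score, where decile 1 is the lowest, for peaks at least 50 kb from a TSS (bars) and nearer ones (line). In each muscle the bars are tallest in decile 1, from 18.6% in EDL to 24.4% in Dia, and lie under the line in the upper deciles.

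A few distal peaks stood at the very top of the lists. The highest score of every list was the same region, chr2:98667012-98667255, 1199 kb downstream of the start of Lrrc4c, a synaptic adhesion gene. Its score was 198.8 in EDL and 222.1 in Quad, then 171.1 in Sol and 200.7 in Dia. All its bases were soft-masked as repeats in the reference, and 69.6% of its 42-base words occur elsewhere in the genome. A locus nearer to the same gene came next among the distal peaks of every list, at chr2:98662168-98662376 in the hindlimb muscles (percentiles 99.9934, 99.995 and 99.9931) and at chr2:98662606-98662838 in Dia (99.9907), and since those peaks did not overlap it is not counted as open in all 4. Among regions open in all 4 muscles, a pair nearest Gm5458 ranked high, at chr14:19417754-19417986 with scores of 47.7, 56.9, 38.1 and 47.1 in EDL, Quad, Sol and Dia, and at chr14:19418700-19418932 with 45.0, 51.1, 35.7 and 45.0. In the latter, 50.7% of the words were not unique. A region 284 kb upstream of Pex2, a peroxisome assembly gene, at chr3:5860538-5860830 scored 39.2, 49.2, 38.2 and 42.7, and 44.6% of its words were not unique. Short reads from repeated sequence can be placed at any of its copies, and the part of this in these scores was not tested.

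Such sequence was rare below the top. Of the 5 highest-scored distal peaks of each list, 5 in EDL, Quad and Dia and 4 in Sol held at least 1 word found elsewhere, and over all distal peaks 101 of 3236 did in EDL and 211 of 4994 in Quad, with 132 of 3275 in Sol and 91 of 1997 in Dia (assembled chromosomes only). Peaks with under 50% unique words numbered 15, 19, 16 and 12. At least 50% of the bases were soft-masked in 2.16% (1.72 to 2.72) of EDL and 4.02% (3.51 to 4.61) of Quad, with 2.66% (2.16 to 3.27) of Sol and 2.05% (1.52 to 2.77) of Dia distal peaks. That share was higher far from genes, going from 1.69% to 6.17% in EDL and from 2.74% to 15.2% in Quad, then from 1.61% to 13.6% in Sol and from 2.03% to 5.36% in Dia between the nearest and the farthest bin. In all, 7 distal regions matched the mitochondrial genome, with peaks in 2 of them in EDL and Quad, 4 in Sol and 6 in Dia. The one 137 kb from Eea1, at 98.1% identity over its whole EDL peak, was open in all 4 lists.

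Among wholly unique sequence, the region whose lowest rank over the 4 muscles was highest was chr15:85634475-85634851, 52.9 kb upstream of Wnt7b, a Wnt ligand. Its score was 26.5 in EDL and 29.5 in Quad, with 26.7 in Sol and 26.5 in Dia, at percentiles 98.4, 99.0, 98.7 and 98.6. The levels were alike in the 4 libraries. A region 64.7 kb downstream of Zfp958, a zinc finger gene, at chr8:4677723-4678023 scored 25, 29.7, 21.9 and 21.7. A region 162 kb upstream of Akr1e1, an aldo-keto reductase named after its values were seen, at chr13:4771494-4771780 scored 30.3 in EDL and 26.4 in Quad, then 29 in Sol and 20 in Dia, with Dia the lowest. Regions nearest Vmn1r238 and Arhgap12 completed the 5 highest when regions mostly repeated or mostly soft-masked were left out, with lowest percentiles of 97.9 and 95.9 over the lists.

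The 13507 distal peaks merged into 7305 regions, out of 53883 for all peaks. Of these, 989 or 13.5% (12.8 to 14.3) were open in all 4 muscles, against 18.9% (18.2 to 19.7) of 11168 nearer intergenic regions, and 4015 or 55.0% were open in 1 muscle, against 47.7%. The most frequent combination was Quad alone with 2151 regions, followed by all 4 muscles, Sol alone with 852, EDL, Quad and Sol with 619, EDL alone with 600, EDL and Quad with 580 and Dia alone with 412. EDL and Dia alone shared 55 regions (0.753%) and Sol and Dia alone 114 (1.56%). The order depended on list length. At equal length, overlap was counted among the cut lists only. A region open in 1 muscle there can still have a lower-scored peak in another full list. Dia alone went from 412 to 563 regions in this way, though its list was shortened. Cutting every list to its top 20000 peaks by score left 2943 distal regions, of which Dia alone had 19.1% (17.7 to 20.6), all 4 muscles 18.6%, Sol alone 12.0%, EDL alone 8.32%, Sol and Dia 5.74%, EDL and Quad 5.54%, EDL and Dia 2.45% and Quad alone 7.85% (6.93 to 8.88).

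**Figure D3:**
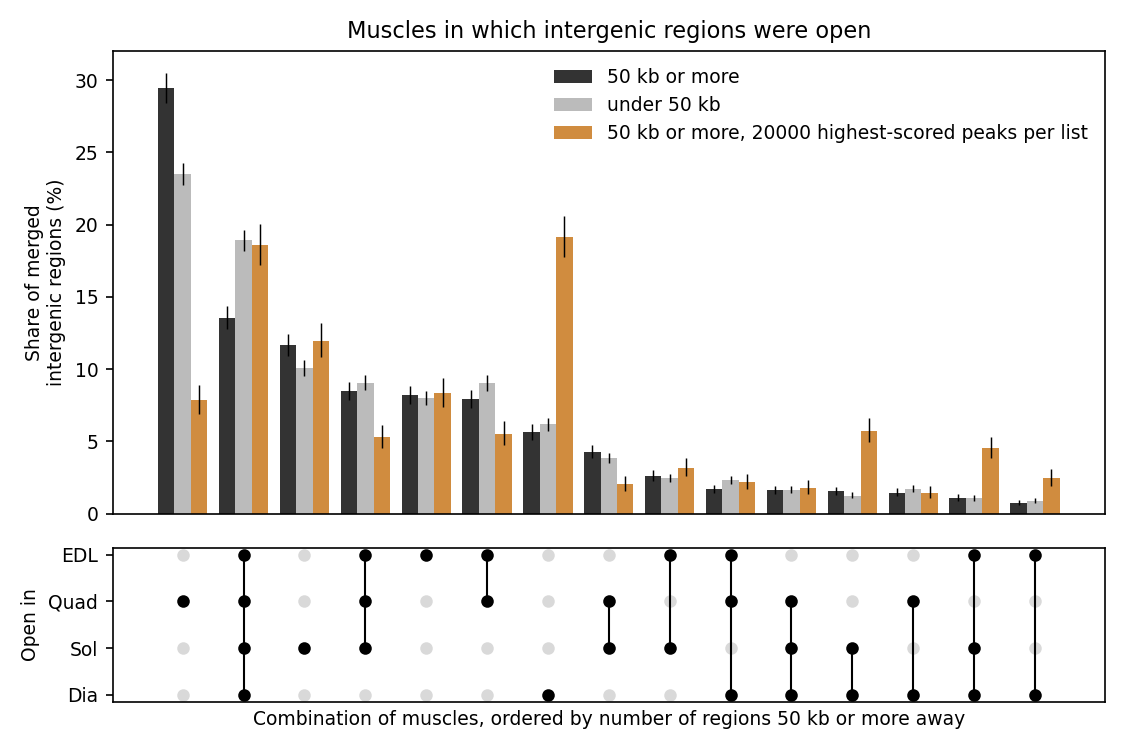
Share (%) of merged intergenic regions open in each combination of EDL, Quad, Sol and Dia (filled dots), for regions at least 50 kb from a TSS, nearer regions, and distal regions built from the top 20000 peaks by score from every list. Bars carry 95% Wilson intervals. Quad alone holds 29.4% of the distal regions at full list length and 7.85% at equal length, and Dia alone 5.64% and 19.1%. Overlap at equal length was counted among the cut lists only.

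Per list, the share of distal peaks that overlapped no peak of another list was 18.5% in EDL (17.2 to 19.9) and 43.1% in Quad (41.7 to 44.4), with 25.999% in Sol (24.5 to 27.5) and 20.6% in Dia (18.9 to 22.5). In the top 20000 peaks by score it was 16.6%, 17.6%, 22.5% and 34.3%, so Dia became the highest and Quad fell. Overlap was then counted among the cut lists only, and Dia lost the fewest peaks to the cut. These shares therefore do not show that Dia peaks are absent from the other full lists. For nearer intergenic peaks at full length it was 15.5%, 33.6%, 20.9% and 18.2%, lower by 3.06 percentage points in EDL (interval 1.45 to 4.71) and 9.47 in Quad (7.74 to 11.2), then 5.08 in Sol (3.24 to 6.95) and 2.41 in Dia (0.278 to 4.60). Score moved with this difference: nearer peaks weighted to the score deciles of the distal peaks gave 18.3% in EDL and 40.9% in Quad, with 26.6% in Sol and 22.6% in Dia, close to the distal values and above them in Sol and Dia. The share of distal peaks overlapping a peak in all of the other 3 lists was 28.9% in EDL and 18.4% in Quad, then 28.7% in Sol and 47.1% in Dia, below the 34.7%, 25.5%, 37.2% and 53.3% of nearer peaks, and the weighted values were 29.3%, 18.7%, 29.8% and 46.3%.

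Peaks of 1 muscle were weak, and made up a larger share of the distal peaks far from genes. Distal peaks in no other list had median percentiles of 10.1 in EDL and 14.95 in Quad, with 11.4 in Sol and 11.4 in Dia, while those in all 4 lists had 55.2, 61.1, 54.5 and 38.1. From the 50 to 100 kb bin to the bin at 500 kb or more, the share in no other list rose from 16.8% to 27.2% in EDL and from 40.4% to 65.7% in Quad, then from 23.7% to 41.7% in Sol and from 19.2% to 39.3% in Dia. The farthest bin held 81, 178, 103 and 56 peaks. In Dia the share was 19.2% both at 50 to 100 kb and at 100 to 200 kb. The median score percentile fell over the same bins, and the part of score in this rise was not tested.

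Pairs of muscles differed in how many distal regions they shared. EDL and Sol shared 40.6% (39.2 to 41.99) of the regions open in either, EDL and Quad 39.0% (37.8 to 40.2), Sol and Dia 32.8% (31.4 to 34.3), Quad and Sol 32.7% (31.5 to 33.9), EDL and Dia 31.3% (29.9 to 32.7) and Quad and Dia 23.6% (22.5 to 24.7). The first 2 overlapped in their intervals, as did the middle 3. At equal list lengths EDL and Quad came first with 50.03% (47.8 to 52.3), followed by EDL and Sol with 44.1%, Quad and Sol with 39.6%, Sol and Dia with 39.1%, EDL and Dia with 35.5% and Quad and Dia with 31.3%. Within the 989 regions open in all 4, the score percentiles of EDL and Quad were the most alike, with a Spearman coefficient of 0.775 and a median absolute difference of 9.69 percentile points. The coefficient was 0.684 between EDL and Sol, 0.674 between Sol and Dia, 0.635 between Quad and Sol, 0.604 between EDL and Dia and 0.591 between Quad and Dia. These describe regions, not replicates, and every pair shares the local sequence and mappability of the regions. Of the 989, 254 were above the median score in all 4 lists and 24 were above percentile 90 in all 4.

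Isolated peaks, with no peak of another list within 1 kb, numbered 468 in EDL and 1903 in Quad, with 743 in Sol and 355 in Dia. These were 14.5%, 38.1%, 22.7% and 17.8% of the distal peaks. Quad, the highest, also had the longest list. The count was not repeated at equal list length, nor for nearer intergenic peaks or all peaks, so it gives no trait of Quad. The highest-ranked of these in EDL lay 61.2 kb upstream of Ampd3, an AMP deaminase, at percentile 67.8, followed by peaks nearest Zfp462 (62.5) and Mir190a (61.8). In Quad the first was 65.0 kb upstream of Spag17, a sperm flagellum gene, at percentile 84.7, and the next were nearest Gm5420 (80.4) and Mir7241 (76.4). In Sol they were nearest Fat4, an atypical cadherin, 66.5 kb upstream at percentile 75.7, and nearest Rassf8 (74.7) and Rreb1 (74.2). In Dia the highest was nearest 4922502H24Rik at percentile 54.2, followed by Lrrc74a (52.5) and Dio2 (50.6), the deiodinase that activates thyroid hormone, 136 kb from its start. None of these 12 peaks reached percentile 90 of its list. At the far end of the distance range, the 3 regions farthest from a TSS were nearest A330008L17Rik (1655 kb), Adgrl3 (1651 kb) and Cntnap5a (1646 kb), the first 2 open in Quad alone at percentiles 11.6 and 0.922 and the last in Dia alone at 9.72.

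Distal regions were spread over 2629 nearest genes, out of 17158 genes with any peak. For 1120 genes there was 1 region, the median was 2, and 77 genes had 10 or more. By chromosome, regions per Mb of sequence ranged from 2.09 on chromosome 7 to 4.56 on chromosome 13 among the autosomes, and were 0.569 on the X chromosome. Regions of every class were few on the X chromosome, at 765. The distal share of them was 12.2%, within the 7.58% to 22.1% of the autosomes. The 10 genes with the most distal regions were Plpp3, Ly86, Klf4, Tbl1xr1, Zfp608, Maf, Pik3r1, Trib2, Acvr2a and Bcor, all protein-coding, with 28 to 18 regions each spread over 259 to 843 kb. For Klf4, Tbl1xr1, Trib2 and Acvr2a all regions lay upstream, and for Plpp3 all lay downstream. At equal list lengths 6 of these 10 were still among the first 10.

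**Figure D4:**
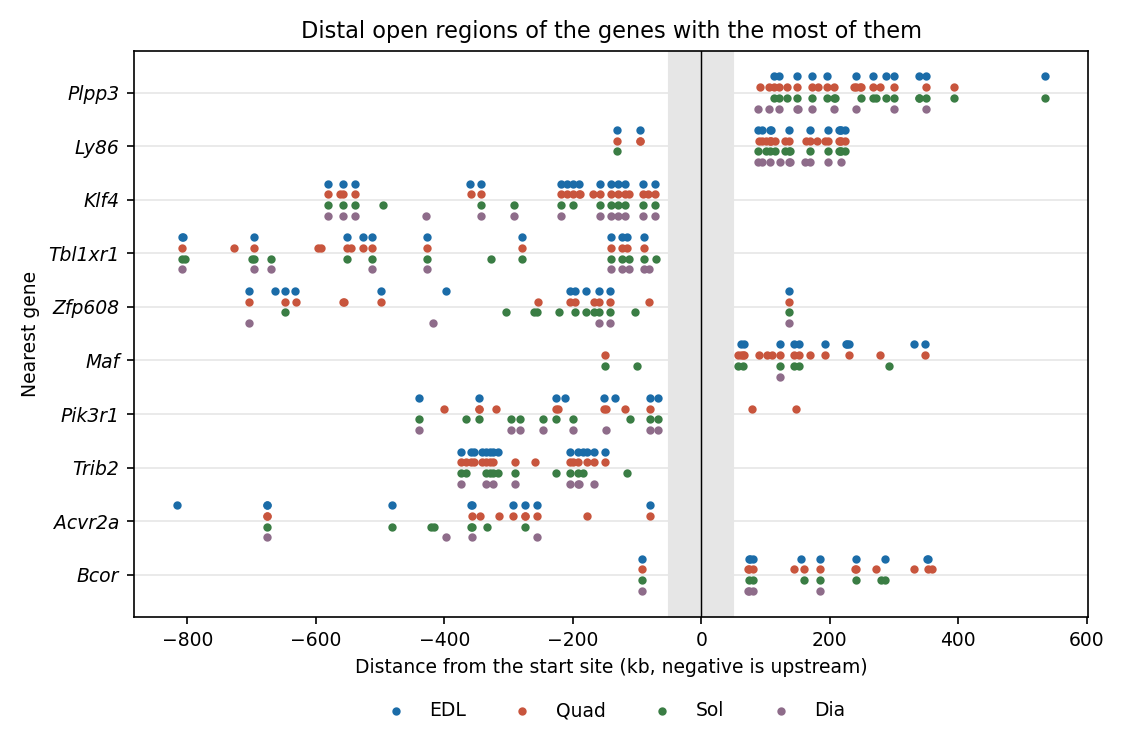
Position of each distal region relative to the start site (kb, negative is upstream) of its nearest gene, for the 10 genes with the most distal regions. Each row of dots is 1 peak list, and the gray band is the 50 kb on each side that the rule leaves out. Klf4 has regions only upstream, out to 581 kb, and Maf has 1 region open in Dia.

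Plpp3, which encodes a lipid phosphate phosphatase, had 28 regions between 88.6 and 535 kb downstream of its start, with 12 peaks in EDL and 19 in Quad, then 18 in Sol and 10 in Dia. With lists of equal length these were 6, 7, 14 and 10. Of the 28 regions, 4 were open in all muscles and 11 in 1. The region whose lowest percentile over the 4 lists was highest lay 172 kb downstream, at percentiles 72.9 in EDL and 75.2 in Quad, with 81.3 in Sol and 66.8 in Dia. Ly86, a toll-like receptor accessory gene of immune cells, had 26, 23 of them downstream. They included the largest cluster of distal regions, with 13 regions in 49.4 kb at chr13:37434157-37483546. Joining regions up to 10 kb apart gave 5304 clusters, 3973 of them single regions and 413 with 3 or more, and the next largest were 9 regions near Sik1, 8 near Eea1 and 8 near Klf13.

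Klf4, a zinc finger factor of endothelium, epithelium and stem cells, had 24 distal regions from 72.7 to 581 kb upstream, with 15 peaks in EDL and 20 in Quad, then 14 in Sol and 13 in Dia. With lists of equal length these were 6, 2, 7 and 13, so Quad went from the most to the fewest. Of the 24 regions, 11 were open in all 4 muscles, the highest number of any of the 10 genes. The region 119 kb upstream, whose window is printed above, stood at percentiles 94.8 in EDL and 93.9 in Quad, with 93.8 in Sol and 90.2 in Dia. A region 581 kb upstream, at the far end of the group, stood at 89.9, 92.1, 96.0 and 86.1. Tbl1xr1, a subunit of nuclear receptor corepressor complexes, had 24 regions out to 808 kb upstream, 7 of them in all 4 lists. Its highest was 141 kb upstream at percentiles 92.5, 94.6, 90.9 and 84.3.

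Maf, which encodes a leucine zipper factor of the large Maf family, had 22 regions, 20 of them downstream between 56.5 and 349 kb. There were 11 peaks in EDL and 16 in Quad, then 8 in Sol and 1 in Dia, and at equal list lengths 9, 6, 1 and 1. The region open in all 4, 122 kb downstream, stood at percentile 73.4 in EDL and 75.8 in Quad, with 24.8 in Sol and 14.96 in Dia. The region 231 kb downstream stood at 75.4 in EDL and 71.9 in Quad and had no peak in Sol or Dia. EDL and Quad thus ranked above Sol and Dia at the first and alone had a peak at the second. The region 144 kb downstream was at 69.0 in EDL, 71.2 in Quad and 77.5 in Sol, so Sol was the highest there.

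Quad and Sol were set side by side gene by gene. Of 2623 nearest genes on the autosomes and X, 1412 had more distal peaks in Quad, 434 had more in Sol and 777 had equal numbers, but at equal list lengths 289 had more in Quad and 455 more in Sol. The largest excess in Quad was at 2810032G03Rik, a non-coding RNA gene, with 10 peaks in Quad and 0 in Sol, followed by Marcks, a protein kinase C substrate (11 and 2), Cxcl12, a chemokine (10 and 2), Maf (16 and 8) and 4921525O09Rik (13 and 6). At equal list lengths the counts were 1 and 0, 2 and 2, 0 and 0, 6 and 1, and 4 and 4, so of the 5 genes an excess of more than 1 peak stayed at Maf alone. The largest excess in Sol was beside Mir3961 (4 in Quad, 10 in Sol), then Tuba3b (0 and 4), 4933402J15Rik (0 and 3), A330049N07Rik (0 and 3) and Edem1 (1 and 4), and at equal lengths these were 2 and 6, 0 and 3, 0 and 2, 0 and 3, and 1 and 2.

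Fixed lists of nearest genes described which gene groups had distal regions. Over all genes with a peak, 15.3% (14.8 to 15.9) had at least 1 distal region and the median number was 0. Among myogenic and muscle transcription factors it was 10 of 22, 45.5% (26.9 to 65.3), and among limb and body patterning genes 13 of 22, 59.1% (38.7 to 76.7), with a median of 1 region. Of the 20 fast fiber genes, such as Myh4 and Actn3, 0 were the nearest gene of a distal region, which allows up to 16.1%. Of the slow fiber genes it was 3 of 19, 15.8% (5.52 to 37.6). The group shares say how often these genes stand beside open gene-poor sequence and depend on how close other genes lie.

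In the muscle factor group, Mef2a had 8 distal regions after Maf, all between 71.8 and 127 kb upstream, with 7 peaks in EDL and 8 in Quad, then 5 in Sol and 3 in Dia, and 6, 6, 4 and 3 at equal lengths. Its region 89.3 kb upstream stood at percentile 73.4 in EDL and 74.6 in Quad, with 53.7 in Sol and 42.9 in Dia. Mef2c had 7 regions, from 162 to 379 kb upstream, with 4, 5, 1 and 1 peaks, and 2, 1, 1 and 1 at equal list lengths. Meox2, a homeobox factor of muscle precursors, had 4 with 2, 4, 2 and 3 peaks, and 2, 2, 1 and 3 at equal lengths. Of the patterning genes, Tshz3 had 10 regions with 4, 9, 3 and 2 peaks, which became 1, 1, 1 and 2 at equal lengths. Tshz1 had 7 with 4, 5, 2 and 1, and Nr2f2, a nuclear receptor, 5 with 3, 3, 1 and 1, and both had 1, 1, 1 and 0 at equal lengths. Irx1 had 4 regions with 3 peaks in EDL, 4 in Quad and 0 in Sol and Dia. At equal lengths its peaks were 2, 1, 0 and 0. Over the whole patterning list EDL held 21 distal peaks, Quad 32, Sol 12 and Dia 9, and at equal list lengths 8, 5, 6 and 5.

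The slow fiber list had its distal regions at oxidative metabolism genes. Ppargc1a, the coactivator PGC1α that promotes mitochondrial gene expression, had 8 regions from 114 to 513 kb downstream, with 2 peaks in EDL and 5 in Quad, then 6 in Sol and 5 in Dia, and 2, 1, 2 and 5 at equal list lengths. The region 513 kb downstream was open in all 4 at percentiles 75.4, 60.1, 76.2 and 70.9, and the one 114 kb downstream was open in Sol and Dia alone at percentiles 29.3 and 29.6. At equal list lengths the latter kept its Dia peak but not its Sol peak. Lpl, the lipase that frees fatty acids from plasma lipoproteins, had 4 regions between 73.5 and 103 kb downstream, 3 of them in all 4 lists. The one 95.5 kb downstream stood at percentile 64.5 in EDL and 69.8 in Quad, with 82.7 in Sol and 63.5 in Dia, so Sol was the highest. Esrrg, an estrogen-related receptor, had 1, in Quad.

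Genes of other cell types in muscle were read against the same 15.3% over all genes, which lay within the intervals of the endothelial and leukocyte lists. Of endothelial and vascular genes, 5 of 17 were nearest to one, 29.4% (13.3 to 53.1), led by Klf4 with 24 and Kdr, the VEGF receptor, with 12. The Kdr peaks numbered 6 in EDL and 7 in Quad, then 8 in Sol and 3 in Dia (2, 1, 4 and 1 at equal lengths), and 0 of its regions were open in all 4 lists. Cdh5 had 5 regions and Emcn 3. Of fibroblast and fibro-adipogenic genes the count was 6 of 18, 33.3% (16.3 to 56.3), with Osr1 and Twist2 at 6 each and Col1a2 and Tcf7l2 at 4 each. Of leukocyte and macrophage genes it was 2 of 10, 20% (5.67 to 51.0): Runx1 with 11 regions, all upstream, and Irf8 with 1. In all, the endothelial list had 25 distal peaks in EDL and 34 in Quad, with 29 in Sol and 19 in Dia, the fibroblast list 13, 15, 8 and 6, and the leukocyte list 7, 9, 6 and 5. At equal list lengths these were 10, 5, 14 and 17, then 6, 5, 3 and 4, then 4, 3, 2 and 4, so Quad went from the most to the fewest endothelial peaks and Dia had the most. Klf4 alone held 6, 2, 7 and 13 of the endothelial peaks at equal lengths, so the lead of Dia rested on that gene. Kdr had the most in Sol.

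The sequence of distal peaks set them apart from nearer ones at CTCF. A CTCF match was in the central 200 bases of 3.58% (2.997 to 4.28) of EDL distal peaks and 3.42% (2.95 to 3.97) of Quad, then 3.02% (2.49 to 3.67) of Sol and 4.36% (3.55 to 5.34) of Dia, against 8.32%, 7.55%, 7.43% and 8.84% of nearer intergenic peaks. The difference was -4.73 percentage points in EDL (-5.68 to -3.75) and -4.13 in Quad (-4.90 to -3.35), then -4.40 in Sol (-5.31 to -3.47) and -4.48 in Dia (-5.73 to -3.17). Weighting the nearer peaks to the score deciles of the distal peaks left them above the distal values, at 9.05%, 7.95%, 7.995% and 9.38%. The motif was found in 4.30% to 5.03% of all peaks and in 0.803% to 1.04% of windows 2 kb beside the distal peaks, where nearer peaks had 2.11% to 2.46%. Within the distal class the share fell again up to 500 kb, from 4.73% at 50 to 100 kb to 1.81% at 200 to 500 kb in EDL and from 4.36% to 2.22% in Quad, from 3.99% to 1.41% in Sol and from 5.68% to 0.920% in Dia. At 500 kb or more, with few peaks, it was 1.23%, 2.81%, 1.94% and 1.79%, higher than in the bin before in Quad, Sol and Dia. GC content moved the same way: distal windows averaged 50.1% G or C in EDL and 49.8% in Quad, then 50.6% in Sol and 50.8% in Dia, against 52.7%, 52.5%, 53.0% and 53.5% for nearer ones. The CTCF motif is rich in G and C, and the part of base composition in its share was not tested.

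The other motifs were at least as frequent in distal peaks as in nearer ones. The NFI site was in 21.4% of EDL and 19.1% of Quad, with 21.5% of Sol and 22.0% of Dia distal windows, above nearer peaks by 3.35 percentage points (1.64 to 5.09), 1.61 (0.236 to 2.99), 3.69 (1.97 to 5.45) and 3.75 (1.58 to 5.97). The AP-1 motif was higher by 1.46 to 2.09 points, with every interval above 0. TEAD was higher by 1.37 to 3.05 points, with intervals above 0 in Quad, Sol and Dia and one from -0.0177 to 3.03 in EDL. For the E-box, in 25.1%, 22.5%, 25.1% and 22.6% of distal windows against 7.86% to 8.59% of their flanks, the interval of the difference from nearer peaks held 0 in all 4 lists. For MEF2 it held 0 in EDL, Quad and Sol, and in Dia distal peaks were higher by 1.48 points (0.391 to 2.67).

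**Figure D5:**
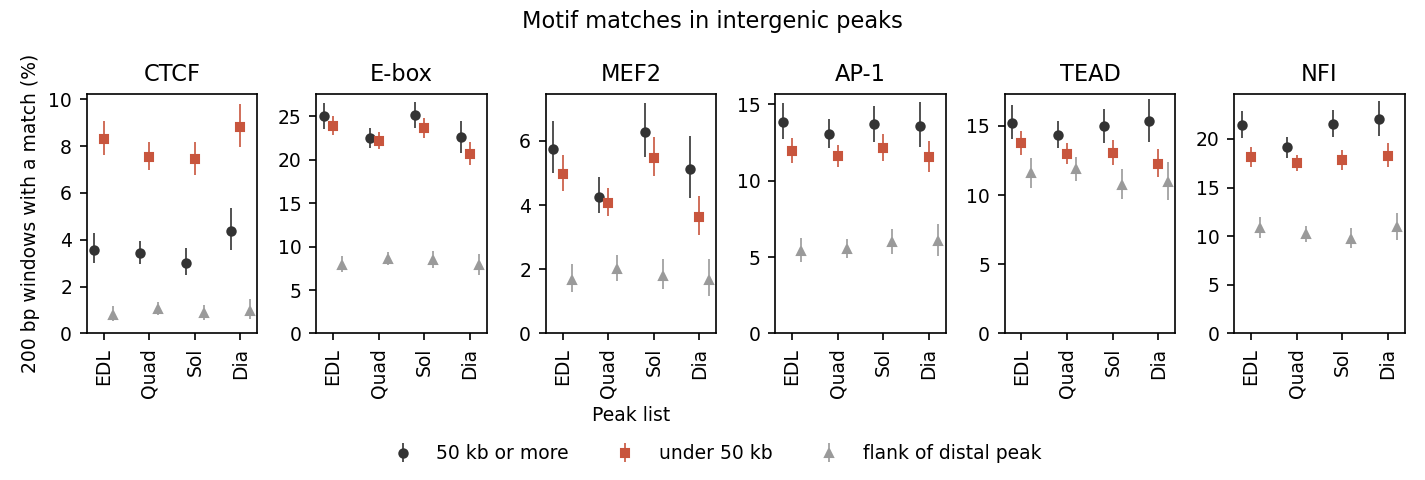
Share (%) of 200-base windows with a match to each of 6 motifs in EDL, Quad, Sol and Dia, for distal peaks (circles), nearer intergenic peaks (squares) and windows 2 kb beside distal peaks (triangles), with 95% Wilson intervals and a separate axis per motif. CTCF is the one motif lower in distal than in nearer peaks, for example 3.58% against 8.32% in EDL.

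Some motifs were unevenly spread over the sharing classes, AP-1 as well as muscle motifs. Distal peaks open in all 4 muscles held an E-box in 27.2% (24.4 to 30.1) of EDL and 26.5% (23.8 to 29.5) of Quad, then 26.6% (23.9 to 29.6) of Sol and 26.8% (24.1 to 29.7) of Dia peaks. Those in no other list held one in 21.2% (18.1 to 24.6), 17.9% (16.3 to 19.6), 22.1% (19.4 to 25.001) and 17.96% (14.6 to 22.0). AP-1 went the same way, at 16.4%, 15.5%, 15.4% and 16.5% against 12.8%, 11.2%, 11.9% and 10.4%. For both motifs the intervals of the classes overlapped in EDL and Sol, but not in Quad and Dia. TEAD went both ways, at 13.4%, 15.2%, 15.2% and 13.9% in all 4 against 17.2%, 12.8%, 14.8% and 16.5% in no other list. NFI was at 22.4%, 21.1%, 22.1% and 22.7% against 21.0%, 17.3%, 20.3% and 22.1%. For TEAD, NFI and CTCF the intervals of the classes overlapped in every list. The part of score, which also differed between the classes, was not tested. MEF2 matches were in 6.82% (5.31 to 8.71) of 851 peaks open in Sol alone, 4.50% (3.11 to 6.47) of 600 in EDL alone, 2.74% (2.13 to 3.52) of 2150 in Quad alone and 1.46% (0.669 to 3.14) of 412 in Dia alone, against 6.00% to 6.38% of those in all 4. The intervals of Sol alone did not overlap those of Quad alone or Dia alone. This MEF2 comparison was made at full list length only. With lists of equal length, Quad alone went from 2151 to 231 regions and Dia alone from 412 to 563. Over all distal peaks the Quad MEF2 share then rose from 4.27% to 5.55%, and the Sol share from 6.29% to 7.24%. The part of list length in the classes of 1 muscle was not tested. The flanks of distal peaks held the motif in 1.65% to 2.002%. Distal peaks with a MEF2 match had median percentiles of 34.3 in EDL and 38.2 in Quad, with 33.4 in Sol and 31.1 in Dia, against 30.1, 30.2, 27.7 and 23.4 without one.

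Distal regions also met enhancers tested in embryos. The RefSeq annotation holds 620 mouse elements of the VISTA collection, in which a sequence is called an enhancer from the staining of transgenic embryos. Of the 7305 distal regions, 45 or 0.616% (0.461 to 0.823) overlapped 36 of these elements, against 76 or 0.681% (0.544 to 0.851) of nearer intergenic regions. There were 10 open in all 4 muscles. The one of highest rank lay 114 kb upstream of Bach2, a leucine zipper repressor, in an element active in somites, the embryonic source of skeletal muscle, as well as in hindbrain and ganglia, and stood at percentiles 82.7 in EDL and 84.7 in Quad, then 82.3 in Sol and 85.6 in Dia. There were 11 regions in 8 elements active in the limb, of which 1 was open in all 4 muscles, 86.8 kb downstream of Gm15326, at percentiles 54.4, 77.9, 48.0 and 53.4. A pair of neighboring regions 126 kb from Sorl1 lay in one limb element, the first open in Quad and Dia and the second in EDL, Quad and Sol at percentiles 69.0, 56.8 and 66.0. There were 9 regions in elements active in the heart, among them one 78.6 kb from Lsm6 at percentiles 74.9, 84.7, 81.6 and 63.5. Elements active in somites held 2 regions. Other regions lay in elements with activity in the brain and none in limb, heart or somites, such as those nearest Plekha6, Irf2bpl and Irf2bp2. The share of each tissue among all 620 elements was not worked out, so no tissue can be called favored. The isolated EDL peak nearest Zfp462 also lay in an element of this collection, one active in the neural tube and forebrain. Apart from Zfp462, the genes named for this collection were chosen after their values were seen.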

How the data were processed

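ATAC-seq had been run on 1 library from each of 4 muscles. The authors aligned reads to mm10 with Bowtie2, made HOMER tag directories with at most 1 tag per position, called peaks in each library and annotated them. The deposited files hold, per peak, its position, a tag signal scaled by library (the peak score), a Focus Ratio given as a fraction, and the distance to the nearest TSS. The Tn5 shift, removal of mitochondrial reads and the HOMER version are not given in the sources used here.

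From these files, score percentiles were ranked within a list, peaks sharing at least 1 bp were merged, and windows of 200 bases were read from GRCm38.p6. Intervals are 95%. The column that would name repeats was empty, so the planned repeat classes were replaced by soft-masked bases and by the share of unique 42-base words. GENCODE and RefSeq gave other start sites, and RefSeq the VISTA elements. Mitochondrial matches came from blastn 2.17.0+. Python 3.11.15, numpy 2.4.6, pandas 2.3.3, scipy 1.17.1, numba 0.67.0 and matplotlib 3.10.9 were used, and the code was tested on simulated data.

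The members and gene lists were chosen with earlier results of these data known. Genes were named by rule, autosomes and X only: the 10 with most distal regions, 5 in each direction with the largest difference between Quad and Sol, the 5 regions highest in all lists with and without repeats, the 3 highest isolated peaks of each muscle, the 3 farthest regions, the peaks at the limit and up to 4 per gene list. Exceptions are stated.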

Additional observations from a re-analysis of the deposited data

How the results depend on the processing

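With 1 library per muscle no value has a replicate check, and the depth per library limits which weak peaks were called. No paired analysis was possible because each muscle has 1 library. The planned exclusion of repeat classes was not run, since that column is empty. Leaving out multi-copy or soft-masked peaks, and asking for 50 kb from every GENCODE protein-coding start, were added after seeing the data. Restriction to autosomes and X moved 0 of 31 values beyond their interval, and the exclusion of multi-copy or soft-masked peaks 0 of 27. In the values below the order is EDL, Quad, Sol and Dia, and the cause was not tested unless the setting itself changes which peaks enter.

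With every list cut to its top 20000 peaks by score, 36 of 56 values moved. Overlap was counted among the cut lists only. The distal share was 7.36%, 6.58%, 7.81% and 8.21%, the median percentile 32.6, 31.0, 30.8 and 25.7, the share in no other list 16.6%, 17.6%, 22.5% and 34.3%, and GC content 51.3%, 52.3%, 51.9% and 51.4%. These percentiles were ranked anew within the cut lists, so they are not on the scale of the full lists. The median distance was 98.8 kb in EDL, 94.4 kb in Quad and 97.2 kb in Sol. The soft-masked share was 1.90% in Quad and 1.47% in Sol. Motif shares in Quad were 2.89% for CTCF, 27.7% for the E-box, 5.55% for MEF2, 14.4% for AP-1 and 22.0% for NFI, and in Sol 26.6% for the E-box and 7.24% for MEF2. Regions open in all muscles were 18.6%. Pairs shared 50.03% (EDL and Quad), 44.1% (EDL and Sol), 35.5% (EDL and Dia), 39.6% (Quad and Sol), 31.3% (Quad and Dia) and 39.1% (Sol and Dia). Of the 10 genes with the most regions, 6 remained.

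At 100 kb or more, the share in no other list was 20.1% in EDL, 45.4% in Quad and 28.1% in Sol, GC content 49.1%, 48.7%, 49.6% and 49.8%, the soft-masked share 5.16% in Quad and 3.60% in Sol, the median percentile 26.2 in Sol and 21.7 in Dia, and regions open in all muscles 12.4%. At 50 kb from every GENCODE transcript start, the distal share was 3.04%, 3.57%, 3.18% and 2.40%, the median distance 129 kb (129.276), 134 kb, 129 kb (128.728) and 132 kb, the median percentile 27.1, 25.8, 24.8 and 20.0005, the share in no other list 23.1%, 48.3%, 29.5% and 23.9%, and regions open in all muscles 11.1%. With protein-coding GENCODE starts the distal share was 9.34%, 10.8%, 9.99% and 7.96% and the median distance 111, 114, 110.4 and 108 kb.

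With 50% reciprocal overlap, the share in no other list was 27.9%, 51.0%, 33.5% and 28.5% and regions open in all muscles 9.37%. Pairs, in the order above, shared 30.2%, 33.3%, 25.7%, 26.3%, 19.0% and 26.7%. With peaks within 500 bp counted as shared, these were 15.3%, 39.1%, 23.6% and 18.4%, then 15.5%, and for pairs 42.6%, 43.3%, 33.9%, 35.5%, 25.6% and 35.1%. With the whole peak searched, Dia motif shares were 25.04% for the E-box, 17.0% for TEAD and 24.9% for NFI. Clusters of 3 or more regions numbered 174 at a joining distance of 5000 bp and 737 at 25000 bp.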
